A study of Homo sapiens with 9 samples.

Results

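Tumors of adapted TBP3743 cells grown in C57BL/6 mice (adapted/B6) were compared with tumors of the same adapted cells grown in B6129SF1 mice (adapted/B6129SF1), so that the host strain differed while the injected cells did not. The comparison rests on 6 of the 9 sequenced tumors, 3 in each group. The 3 tumors of original TBP3743 cells in B6129SF1 mice (original/B6129SF1) were used to show whether a gene followed the host strain. They also entered an alternative model of all 9 tumors, but not the main fit. TBP3743 is a single murine anaplastic thyroid cancer line of B6129SF1 origin. Its source mice carried mutant Braf and lacked Trp53 in the thyroid only, so the injected cells of all 3 groups share both alleles. Adapted cells had been passaged serially under the skin of C57BL/6 mice and were taken after adaptation passage 3. Cells were injected into the thyroid of 6-week-old female mice, 100000 cells per mouse, and the untreated tumors were collected on day 14. C57BL/6 is a parental strain of the B6129SF1 hybrid, so that both hosts shared one parental genome. The strains came from different suppliers, and strain and supplier cannot be told apart here. RNA came from whole tumors, in which fewer cells of a type and less RNA per cell cannot be told apart.

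Interferon-gamma, made mainly by activated T cells and NK cells, induces the transcription factor IRF1, guanylate-binding proteins, immunity-related GTPases, the chemokines CXCL9 and CXCL10, the peptide-loading machinery of MHC class I and the checkpoint ligand PD-L1. MHC class II is made by professional antigen-presenting cells and by some interferon-treated cells under control of the transactivator CIITA. Inbred mouse strains also differ in genes of their own immune cells, among them mast cell proteases and paired receptors of myeloid cells, and such genes mark the host part of a grafted tumor.

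Expression was given as FPKM, the fragments per kilobase of transcript, scaled to the number of mapped fragments. The FPKM of the 6 tumors summed to between 457983 and 540514, and between 9881 and 10414 genes reached 1 FPKM. FPKM does not keep the read depth, which is therefore unknown. Replicate 3 of adapted/B6129SF1 held 8.26% of its FPKM sum in skeletal muscle genes and replicate 1 of adapted/B6 held 1.58%, whereas the other 7 tumors held at most 0.194%. All 25 tested muscle genes were lower on average in adapted/B6, with a median log2 fold change of -1.20, and none separated the groups. The direction of these genes rested on single tumors, since their median was 1.01 without adapted/B6129SF1 replicate 3, 0.25 without adapted/B6 replicate 2 and -3.24 without adapted/B6129SF1 replicate 2. Adapted/B6129SF1 replicate 1 stood apart by low levels of T cell, interferon-gamma response and proliferation genes. The tumors expressed the epithelial keratin Krt8 at 153 to 283 FPKM and the thyroid transcription factor Nkx2-1 at 23.5 to 44.5 FPKM. Thyroglobulin (Tg), the follicular hormone precursor, ranged from 0.0382 to 31.0 FPKM, and the adhesion molecule Epcam from 0.0949 to 2.49 FPKM. A cancer epithelial label thus rested on few genes, such as Krt8 and Nkx2-1, and not on differentiated thyroid genes. Only 7 of 16 epithelial and 3 of 13 thyroid genes passed the filter described below. Mean log2(FPKM + 1) in the 6 tumors was 2.62 to 3.65 over tested epithelial genes and 6.52 to 6.86 over mesenchymal genes. The paper reports loss of E-cadherin protein in cultured original and adapted cells, whereas the values here are RNA of whole tumors.

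Of 17369 genes in the table, 10131 had at least 1 FPKM in at least 3 of the 6 tumors and were tested. No gene (0%) was a DEG by limma on log2(FPKM + 1), where a DEG needed an adjusted p under 0.05 together with a log2 fold change past 1 in either direction, and the lowest adjusted p was 0.114. At an unadjusted p under 0.05, 609 genes (6.01%) passed, 323 higher (3.19%) and 286 lower (2.82%) in adapted/B6. With all 9 tumors in one limma model, 3 genes (0.0296%) were DEGs, all lower in adapted/B6. Without a test, 644 genes (6.36%) had all 3 adapted/B6 tumors above all 3 adapted/B6129SF1 tumors and 550 (5.43%) had them all below. Counts of genes without overlap in the lists below are to be read against these shares. With a log2 fold change above 1 in addition, 30 genes (0.296%) were higher and 30 (0.296%) were lower, as plotted for all genes by level and fold change. Log2 fold changes are on the log2(FPKM + 1) scale, which understates changes of low genes, and folds are ratios of mean FPKM. An exact permutation test of 3 tumors against 3 cannot give a p below 0.1.

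**Figure D1:**
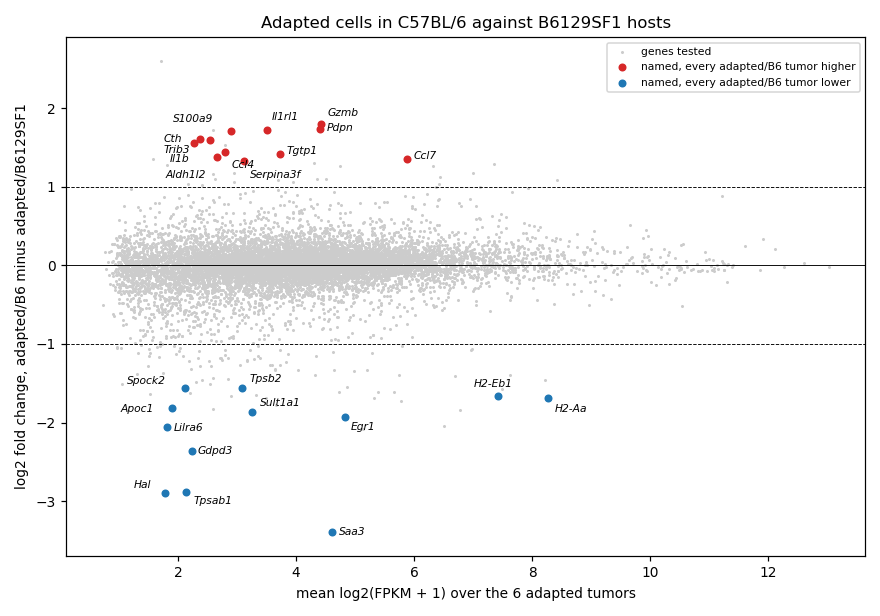
Each point is 1 of the 10131 genes tested, with its mean log2(FPKM + 1) over the 6 adapted tumors on the horizontal axis and the log2 fold change of adapted/B6 over adapted/B6129SF1 on the vertical axis. Red and blue points are the 12 largest differences in each direction among genes whose groups did not overlap and whose higher group averaged at least 5 FPKM, and dashed lines mark log2 fold changes of 1 and -1.

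The 3 genes that fell in adapted/B6 with 9 tumors in the model were Lilra6, Gdpd3 and Tpsab1. Lilra6 and Tpsab1 were under 1 FPKM in every adapted/B6 tumor and passed the filter through the adapted/B6129SF1 tumors. Gdpd3 reached 1 FPKM in adapted/B6 only in replicate 2. With 1 FPKM required in all tumors none of these genes was tested. Lilra6, a paired immunoglobulin-like receptor of myeloid cells, measured 6.73, 4.91 and 7.26 FPKM in the adapted/B6129SF1 tumors and 0.863, 0.564 and 0.777 FPKM in the adapted/B6 tumors. The original/B6129SF1 tumors, at 3.19, 3.91 and 4.21 FPKM, lay between the other groups and above every adapted/B6 tumor. Its mean was 8.58-fold lower in adapted/B6 (0.735 ± 0.154 against 6.30 ± 1.23 FPKM, SD, n = 3), with a log2 fold change of -2.06 ± 0.17 (SE). Its limma adjusted p was 0.114 with 6 tumors and 0.00643 with 9. Pira2, a related receptor that shares near-identical sequence with Lilra6 so that reads may be split between them, measured 1.83 to 2.40 FPKM in adapted/B6129SF1, 0.593 to 0.709 FPKM in adapted/B6 and 1.20 to 2.23 FPKM in original/B6129SF1. Pira2 was thus under 1 FPKM in every adapted/B6 tumor and also passed the filter through the adapted/B6129SF1 tumors. Both receptors separated C57BL/6 from B6129SF1 hosts with no overlap, although Pira2 had an adjusted p of 0.538 by limma with 6 tumors. Because reads may be split between them, they are not independent observations.

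Gdpd3, a lysophospholipase D, measured 8.39, 7.86 and 13.4 FPKM in adapted/B6129SF1 and 0.861, 1.63 and 0.821 FPKM in adapted/B6. All original/B6129SF1 tumors, at 2.62, 3.37 and 3.47 FPKM, were above all adapted/B6 tumors and below all adapted/B6129SF1 tumors. The mean was 8.96-fold lower in adapted/B6, the log2 fold change was -2.36 ± 0.24 (SE), and the limma adjusted p was 0.219 with 6 tumors and 0.0137 with 9. Tpsab1 encodes a mast cell tryptase, mouse mast cell protease 7, that C57BL/6 mice are known to lack. It measured 6.46, 10.9 and 18.6 FPKM in adapted/B6129SF1 and 0.618, 0.841 and 0.439 FPKM in adapted/B6. In original/B6129SF1 it measured 5.04, 4 and 6.84 FPKM, so that the 6 tumors of B6129SF1 hosts lay above the 3 of C57BL/6 hosts. Its mean was 18.9-fold lower in adapted/B6, with limma adjusted p-values of 0.341 with 6 tumors and 0.0351 with 9.

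**Figure D2:**
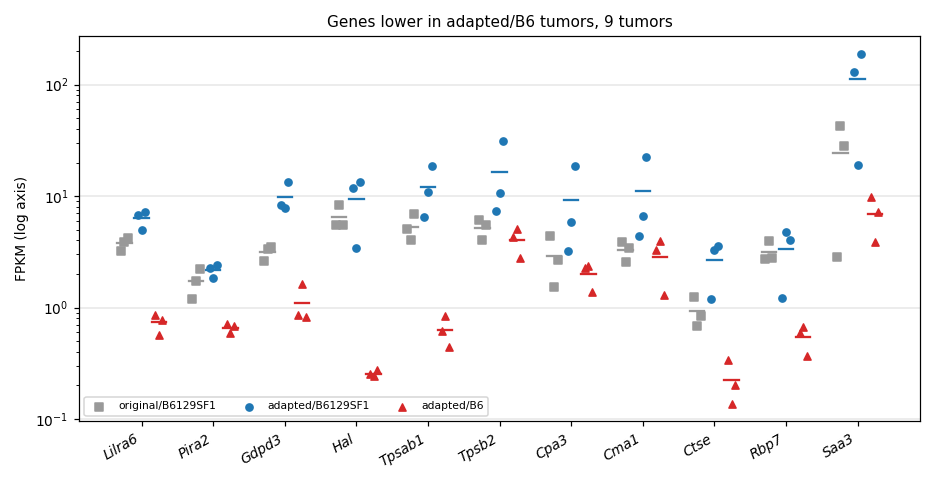
FPKM on a log axis of genes that were lower in adapted/B6, with 1 point per tumor for the 3 original/B6129SF1 (grey squares), 3 adapted/B6129SF1 (blue circles) and 3 adapted/B6 tumors (red triangles) and a bar at each group mean. Lilra6, Pira2, Gdpd3, Hal, Tpsab1, Ctse and Rbp7 of both B6129SF1 groups lay above every adapted/B6 tumor, whereas original/B6129SF1 values of Tpsb2, Cpa3, Cma1 and Saa3 reached into the adapted/B6 range.

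Following the host strain was defined as all 6 tumors of B6129SF1 hosts lying on the same side of all 3 adapted/B6 tumors. The original/B6129SF1 and adapted/B6129SF1 tumors are thereby set against the same adapted/B6 tumors. Genes that also differed between the B6129SF1 groups, which received different cells, can meet this definition. Of the 30 genes that were lower past the fold limit, 9 followed the host strain, and of the 30 that were higher, 19 did. Most of the 9 lower genes were under 1 FPKM in adapted/B6 and passed the filter through the B6129SF1 tumors, and with 1 FPKM required in all tumors 3 were counted. Without the fold limit, 199 of all genes tested (1.96%) followed the host strain downward and 198 (1.95%) upward. Besides Lilra6, Gdpd3 and Tpsab1, the 9 lower genes were Hal, Ctse, Egr1, Itga10, Rbp7 and Fosb. Histidine ammonia-lyase (Hal) measured 11.7, 3.43 and 13.3 FPKM in adapted/B6129SF1, 0.252, 0.241 and 0.276 FPKM in adapted/B6 and 5.47, 8.32 and 5.56 FPKM in original/B6129SF1. Its means differed 37.1-fold with adjusted p-values of 0.538 and 0.127 by limma with 6 and 9 tumors, and the adapted/B6129SF1 tumors varied among themselves more than the adapted/B6 tumors did. Cathepsin E (Ctse) ranged from 1.20 to 3.56 FPKM in adapted/B6129SF1 and from 0.138 to 0.336 FPKM in adapted/B6. The retinol-binding protein Rbp7 ranged from 1.22 to 4.74 FPKM and from 0.369 to 0.675 FPKM. Both are low-level genes for which the distance between groups was a few FPKM.

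Other mast cell products were lower in adapted/B6 as well, but with a different pattern over the B6129SF1 tumors. The second tryptase Tpsb2 measured 7.30, 10.6 and 30.9 FPKM in adapted/B6129SF1 and 4.32, 5.02 and 2.77 FPKM in adapted/B6. Carboxypeptidase A3 (Cpa3) measured 3.23, 5.91 and 18.7 FPKM in adapted/B6129SF1 and 2.25, 2.36 and 1.39 FPKM in adapted/B6. Chymase (Cma1) measured 4.36, 6.56 and 22.6 FPKM in adapted/B6129SF1 and 3.30, 3.93 and 1.30 FPKM in adapted/B6. In all 3 genes adapted/B6129SF1 replicate 3, the tumor with the most muscle RNA, was the highest, and original/B6129SF1 tumors overlapped adapted/B6. The mast cell receptor Kit, at 1.48 to 2.55 and 1.89 to 3.20 FPKM, overlapped between groups. Of 16 mast cell and basophil genes, 9 were tested, 4 of them were lower without overlap (5.43% of all genes tested were) and none higher, and the median log2 fold change was -1.21 beside 0.01 over all genes tested. Without adapted/B6129SF1 replicate 3 the median was -0.45. Reads of Tpsab1 and Tpsb2, close paralogs, may be split between them.

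Interferon-gamma response genes were higher in adapted/B6. All 31 genes of this list that were in the table passed the filter, and 29 had a log2 fold change above 0 (51.7% of all genes tested did). Every adapted/B6 tumor was above every adapted/B6129SF1 tumor in 19 (6.36% of all genes tested) and below in none (5.43%). The median log2 fold change was 0.75. None of the 31 genes was a DEG with 6 or 9 tumors. The transcription factor Irf1 measured 42.5, 67.4 and 54.4 FPKM in adapted/B6129SF1 and 84.8, 82.4 and 117 FPKM in adapted/B6. The T cell-attracting chemokine Cxcl10 measured 35.8, 65.3 and 54.2 FPKM in adapted/B6129SF1 and 87.4, 107 and 196 FPKM in adapted/B6. In both genes the adapted/B6129SF1 values stayed below the lowest adapted/B6 value, and the means differed 1.73-fold and 2.51-fold.

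Among the immunity-related GTPases, which disrupt the vacuoles of intracellular pathogens, Iigp1 averaged 111 ± 46.3 FPKM in adapted/B6129SF1 and 263 ± 87.0 FPKM in adapted/B6 (SD, n = 3). Tgtp1 measured 4.32, 11.1 and 7.46 FPKM in adapted/B6129SF1 and 16.2, 17.4 and 31.4 FPKM in adapted/B6, and neither gene overlapped. Irgm1 averaged 53.8 ± 9.98 FPKM in adapted/B6129SF1 and 103 ± 26.8 FPKM in adapted/B6 (SD, n = 3). Of the guanylate-binding proteins, Gbp2 averaged 175 ± 38.7 and 352 ± 112 FPKM and Gbp4 12.8 ± 6.15 and 31.3 ± 10.6 FPKM, again without overlap. Reads of these multigene families may be shared between members. The protease inhibitor Serpina3f averaged 4.98 ± 2.79 FPKM in adapted/B6129SF1 and 13.2 ± 4.46 FPKM in adapted/B6. Adjusted p-values of these genes lay between 0.70 and 0.764 by limma with 6 tumors.

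Other interferon-gamma response genes did not separate the groups. The chemokine Cxcl9 measured 38.6, 111 and 124 FPKM in adapted/B6129SF1 and 140, 108 and 188 FPKM in adapted/B6, and the ranges overlapped. Ccl5 (46.2 ± 19.3 and 43.5 ± 5.93 FPKM, SD, n = 3) and the tryptophan-degrading enzyme Ido1 (1.25 ± 0.561 and 1.03 ± 0.327 FPKM) were the 2 list members with a log2 fold change below 0. Adapted/B6129SF1 replicate 1 had the lowest value of its group in most of these genes, and without it the list median was 0.53. Without adapted/B6 replicate 3, which was the highest in most of them, the list median was 0.56. The original/B6129SF1 tumors were lower still than adapted/B6129SF1 for nearly all of them, with Gbp4 at 1.64 to 2.88 FPKM and Iigp1 at 17.3 to 37.3 FPKM. By the definition above, 18 of the list followed the host strain (1.95% of all genes tested did so upward). That definition does not weigh the difference between the B6129SF1 groups. For Gbp4 the log2 difference of adapted/B6 was 1.31 from adapted/B6129SF1 and 3.34 from original/B6129SF1.

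**Figure D3:**
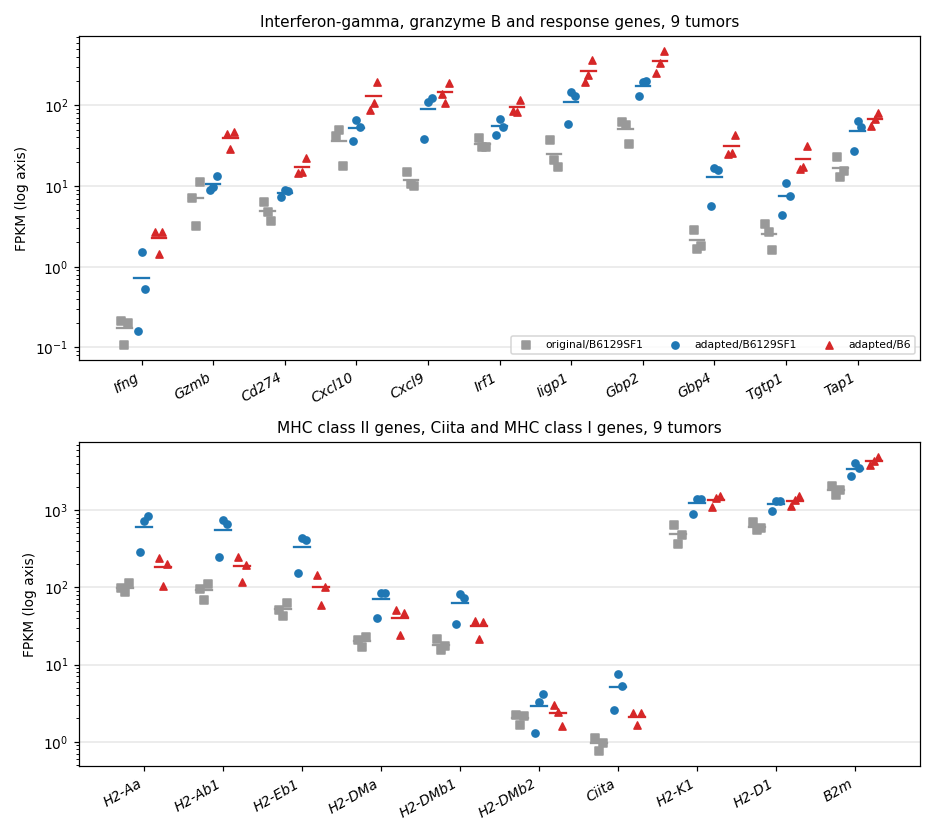
FPKM on log axes in 9 tumors, with 1 point per tumor and a bar at each group mean, for interferon-gamma, granzyme B, Cd274 and response genes (top) and for MHC class II genes, Ciita and MHC class I genes (bottom). Adapted/B6 points lie above adapted/B6129SF1 points for Gzmb, Cd274, Cxcl10, Irf1, Iigp1, Gbp2, Gbp4 and Tgtp1, whereas adapted/B6129SF1 means are the highest for H2-Aa, H2-Ab1, H2-Eb1 and Ciita.

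Interferon-gamma itself (Ifng) was near the detection range of the table. It measured 0.158, 1.5 and 0.524 FPKM in adapted/B6129SF1 and 2.71, 1.45 and 2.72 FPKM in adapted/B6, where the lowest adapted/B6 value lay just under the highest adapted/B6129SF1 value. The subunit Ifngr1 of its receptor was lower in adapted/B6 without overlap, at 61.8 ± 4.15 against 80.5 ± 12.2 FPKM (SD, n = 3). The checkpoint ligand Cd274 (PD-L1), a known target of the cytokine, measured 7.42, 8.81 and 8.67 FPKM in adapted/B6129SF1, 14.5, 15.1 and 22.4 FPKM in adapted/B6 and 6.29, 4.75 and 3.70 FPKM in original/B6129SF1. All adapted/B6 tumors were above all other tumors. Its mean was 2.09-fold higher in adapted/B6, with a log2 fold change of 0.96 ± 0.18 (SE) and a limma adjusted p of 0.551 with 6 tumors. It was the only one of 14 tested inhibitory checkpoint genes without overlap (6.36% of all genes tested were higher). The list median was 0.13. The T cell checkpoint receptor Ctla4, for example, measured 0.823 to 3.69 FPKM in adapted/B6129SF1 and 2.53 to 2.95 FPKM in adapted/B6.

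Granzyme B (Gzmb), the protease that killer lymphocytes release into target cells, had the largest log2 fold change above 0 among genes without overlap. It measured 8.89, 9.71 and 13.2 FPKM in adapted/B6129SF1, 44.2, 28.7 and 46.8 FPKM in adapted/B6 and 7.01, 3.22 and 11.2 FPKM in original/B6129SF1. The lowest adapted/B6 tumor exceeded the highest B6129SF1 tumor, and the mean was 3.76-fold higher. The log2 fold change was 1.81 ± 0.22 (SE) with a limma adjusted p of 0.341 with 6 tumors. Granzyme A (Gzma) was also higher without overlap, at 7.36 to 8.51 against 2.59 to 7.33 FPKM, a gap far smaller than for Gzmb. Gzmc (30.9 ± 13.5 against 13.7 ± 6.09 FPKM, SD, n = 3) and the pore-forming Prf1 (5.50 ± 1.69 against 3.39 ± 0.872 FPKM) overlapped.

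Of 15 tested T cell genes, Thy1 was the only one that separated the groups (6.36% of all genes tested were higher without overlap). The CD8 chain Cd8a measured 0.541, 4.78 and 3.55 FPKM in adapted/B6129SF1 and 5.21, 3.11 and 4.16 FPKM in adapted/B6. The CD3 chain Cd3g measured 2.03, 8.37 and 5.93 FPKM and 8.61, 5.53 and 7.02 FPKM. In both, adapted/B6129SF1 replicate 1 was far below the other 5 tumors, which overlapped. Thy1, also made by fibroblasts, averaged 92.8 ± 21.7 FPKM in adapted/B6129SF1 and 165 ± 20.0 FPKM in adapted/B6 (SD, n = 3) without overlap. The median log2 fold change of the list was 0.17, and it was -0.21 without adapted/B6129SF1 replicate 1. Over 12 tested genes of NK cells and cytotoxic effectors, of 20, it was 0.45, and 0.04 without that tumor. Among costimulatory genes, Tnfrsf9 (4-1BB, induced on activated T cells) measured 8.08, 7.08 and 4.30 FPKM in adapted/B6129SF1 and 13.4, 18.8 and 14 FPKM in adapted/B6. Tnfrsf4 (OX40) and Icos were also higher without overlap, 3 of 11 tested in all (6.36% of all genes tested were). All 3 followed the host strain (1.95% of all genes tested did so upward). No B cell gene passed the filter, and the highest of the 9 in the table, Cd79b, stayed under 1 FPKM.

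Of 26 tested genes induced mainly by type I interferon, 3 were higher without overlap (the transcription factor Stat2, the nucleic acid sensor Zbp1 and the restriction factor Bst2), none was lower, beside 6.36% and 5.43% of all genes tested. The median log2 fold change was 0.23, and it was 0.038 without adapted/B6 replicate 3 and 0.53 without adapted/B6 replicate 1. Bst2 measured 124, 105 and 108 FPKM in adapted/B6129SF1 and 125, 178 and 218 FPKM in adapted/B6, where adapted/B6 replicate 1 barely exceeded the highest adapted/B6129SF1 tumor. Isg15, a ubiquitin-like protein that marks the type I response, measured 31.6 to 63.4 and 33.4 to 79.8 FPKM, and the groups overlapped.

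MHC class I heavy chains and B2m overlapped between hosts. H2-K1 measured 894, 1377 and 1397 FPKM in adapted/B6129SF1 and 1116, 1431 and 1543 FPKM in adapted/B6. None of the 10 tested class I genes separated the groups, and their median log2 fold change was 0.17, or 0.0081 without adapted/B6129SF1 replicate 1. The class I transactivator Nlrc5, the peptide-trimming Erap1 and the chaperone Pdia3 were higher without overlap, 3 of 13 peptide processing genes (6.36% of all genes tested were). All 13 genes of class I peptide processing had a log2 fold change above 0, with a median of 0.32. Without adapted/B6129SF1 replicate 1 this median was 0.15. Nlrc5 measured 9.14, 12.9 and 12.7 FPKM in adapted/B6129SF1 and 14.7, 18.9 and 20.7 FPKM in adapted/B6. The peptide transporter Tap1 measured 27.4, 63.2 and 53.3 FPKM and 55.8, 67.0 and 79.5 FPKM, and adapted/B6129SF1 replicate 1 was again the lowest.

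MHC class II genes were lower in adapted/B6. H2-Aa, the alpha chain of the class II molecule I-A, measured 284, 716 and 839 FPKM in adapted/B6129SF1, 243, 103 and 201 FPKM in adapted/B6 and 98.4, 86.2 and 113 FPKM in original/B6129SF1. H2-Eb1 measured 155, 440 and 410 FPKM in adapted/B6129SF1 and 144, 58.7 and 102 FPKM in adapted/B6. The transactivator Ciita measured 2.60, 7.47 and 5.20 FPKM in adapted/B6129SF1 and 2.34, 1.63 and 2.33 FPKM in adapted/B6. These 3 genes did not overlap, but the closest pair of tumors, adapted/B6129SF1 replicate 1 and adapted/B6 replicate 1, differed little. Their means were 3.36-fold, 3.30-fold and 2.43-fold lower in adapted/B6, with limma adjusted p-values of 0.74, 0.74 and 0.813. H2-Ab1 had 248 FPKM in both of those replicates and otherwise lay at 662 and 738 FPKM in adapted/B6129SF1 and at 118 and 196 FPKM in adapted/B6. All 7 tested class II genes had a log2 fold change below 0, with a median of -0.92 that ranged from -1.31 to -0.69 when 1 tumor was left out. They did not follow the host strain, because original/B6129SF1 tumors were as low as or lower than adapted/B6 tumors for these chains.

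Among chemokines that recruit monocytes, Ccl2, Ccl7, Ccl3 and Ccl4 were higher in adapted/B6 without overlap, whereas Ccl8 and Ccl12 overlapped. Ccl7 measured 42.5, 24.1 and 44.7 FPKM in adapted/B6129SF1 and 96.0, 69.0 and 122 FPKM in adapted/B6. Ccl2 measured 74.9, 38.6 and 67.3 FPKM and 121, 98.1 and 173 FPKM. Neither followed the host strain, since original/B6129SF1 tumors held 65.8 to 94.9 FPKM of Ccl7 and 80.1 to 130 FPKM of Ccl2. Ccl4 measured 1.66, 6.82 and 2.67 FPKM in adapted/B6129SF1 and 12.1, 8.59 and 11.1 FPKM in adapted/B6, and Ccl3 averaged 2.85 ± 1.24 and 6.59 ± 0.703 FPKM (SD, n = 3). Both followed the host strain. Ccr2, the receptor for Ccl2 and Ccl7, averaged 42.4 ± 14.2 FPKM in adapted/B6129SF1 and 22 ± 3.17 FPKM in adapted/B6. Of 19 tested genes of monocytes and their recruitment these 4 chemokines were the only ones higher, and Ccr2 the only one lower, without overlap. Over all genes tested the shares were 6.36% and 5.43%. Adjusted p-values of these 5 genes lay between 0.656 and 0.746 by limma with 6 tumors. Ccl8 averaged 191 ± 167 and 195 ± 44.9 FPKM, and Ccl12 65.2 ± 21.0 and 112 ± 41.2 FPKM (SD, n = 3).

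Most macrophage genes overlapped between the groups. Csf1r, the receptor for macrophage growth factor, averaged 108 ± 7.62 FPKM in adapted/B6129SF1 and 76.1 ± 28.1 FPKM in adapted/B6, and the efferocytosis receptor Mertk averaged 27.4 ± 3.24 and 17.0 ± 4.81 FPKM (SD, n = 3). They were the only 2 of 16 tested macrophage genes without overlap (5.43% of all genes tested were lower). The median log2 fold change was -0.20, or 0.066 without adapted/B6 replicate 2. Arginase 1 (Arg1) measured 629, 104 and 193 FPKM in adapted/B6129SF1 and 449, 428 and 637 FPKM in adapted/B6, so that the groups overlapped through adapted/B6129SF1 replicate 1. Of neutrophil genes, the calcium-binding alarmin S100a9 measured 5.50, 1.55 and 3.31 FPKM in adapted/B6129SF1 and 22.8, 11.3 and 7.43 FPKM in adapted/B6. S100a9 did not follow the host strain, with original/B6129SF1 tumors at 5.02 to 13.2 FPKM. Its partner S100a8, at 4.15 to 14.6 and 10.2 to 21.1 FPKM, overlapped. Of 11 tested neutrophil genes, 6 had a log2 fold change above 0 and 5 below 0. The gelatinase Mmp9 (238 ± 164 and 99.5 ± 70.8 FPKM, SD, n = 3) and the siderophore-binding Lcn2 (5.40 ± 4.58 and 2.72 ± 3.46 FPKM) had lower means in adapted/B6, and both overlapped.

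Among interleukin genes, the IL-33 receptor Il1rl1 measured 5.16, 4.12 and 6.75 FPKM in adapted/B6129SF1 and 14, 17.4 and 31.4 FPKM in adapted/B6. It was 3.91-fold higher in adapted/B6 but did not follow the host strain, since original/B6129SF1 tumors held 113, 28.6 and 136 FPKM. The inflammatory cytokine Il1b averaged 2.03 ± 1.47 FPKM in adapted/B6129SF1 and 7.83 ± 3.36 FPKM in adapted/B6, and the receptor antagonist Il1rn averaged 9.79 ± 1.58 and 22.2 ± 7.50 FPKM (SD, n = 3). Il1b did not follow the host strain, with original/B6129SF1 tumors at 2.09 to 6.30 FPKM. Il18 was lower in adapted/B6 without overlap, at 3.66 ± 0.708 against 6.72 ± 2.46 FPKM. These were, with Ifngr1, the 5 of 22 tested cytokine and receptor genes whose groups did not overlap (6.36% of all genes tested were higher and 5.43% lower). Podoplanin (Pdpn), a mucin-like membrane protein of fibroblasts, lymphatic endothelium and some tumor cells, measured 17.4, 6.11 and 11.1 FPKM in adapted/B6129SF1 and 36.7, 29.8 and 49.1 FPKM in adapted/B6. It did not follow the host strain, since original/B6129SF1 tumors held 13.7 to 33.0 FPKM.

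Several of the largest differences upward were in genes of amino acid synthesis and import that the transcription factor ATF4 is known to induce. A list of 40 such genes was written after these differences had been seen, so its counts describe the same values and are no independent evidence. Of 35 tested, 31 had a log2 fold change above 0, and the median was 0.62. Without overlap, 22 were higher and 1 lower (6.36% and 5.43% of all genes tested were). The pseudokinase Trib3, an ATF4 target, measured 2.42, 3.03 and 1.73 FPKM in adapted/B6129SF1 and 6.34, 8.38 and 13.9 FPKM in adapted/B6. Asparagine synthetase (Asns) measured 13.6, 20.7 and 15.3 FPKM and 34.9, 33.0 and 57.8 FPKM. Cystathionine gamma-lyase (Cth), which makes cysteine, measured 2.00, 2.89 and 1.24 FPKM and 7.02, 5.81 and 12.5 FPKM. In these 3 genes the original/B6129SF1 tumors were on the adapted/B6129SF1 side, and adapted/B6 replicate 3 was the highest tumor. Of the list, 14 genes followed the host strain (1.95% of all genes tested did so upward and 1.96% downward).

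The mitochondrial folate enzymes Aldh1l2 (3.01 ± 0.921 and 9.56 ± 3.09 FPKM, SD, n = 3) and Mthfd1l (11.1 ± 0.195 and 18.5 ± 1.88 FPKM) were higher in adapted/B6 without overlap. The serine synthesis enzymes Psat1 and Phgdh averaged 60.3 ± 16.8 and 103 ± 26.8 FPKM in adapted/B6129SF1 and 124 ± 30.5 and 174 ± 41.5 FPKM in adapted/B6. Psat1 did not follow the host strain, since original/B6129SF1 tumors held 67.3 to 111 FPKM. The amino acid transporter Slc7a5 averaged 22.8 ± 1.86 and 37.5 ± 8.98 FPKM, and the asparaginyl-tRNA synthetase Nars 110 ± 1.23 and 170 ± 34.4 FPKM. Adjusted p-values of these 9 genes were at least 0.538 by limma with 6 tumors. Atf4 itself overlapped, at 127 to 147 and 145 to 183 FPKM. Of the 4 members with a log2 fold change below 0, Ddit4, a stress-induced inhibitor of mTORC1, was the only one without overlap, at 62.0, 45.7 and 66.8 FPKM in adapted/B6129SF1 and 27.2, 31.3 and 12.6 FPKM in adapted/B6. The list median lay between 0.47 and 0.74 when 1 tumor was left out, and it was 0.71 without the 2 tumors with muscle RNA.

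**Figure D4:**
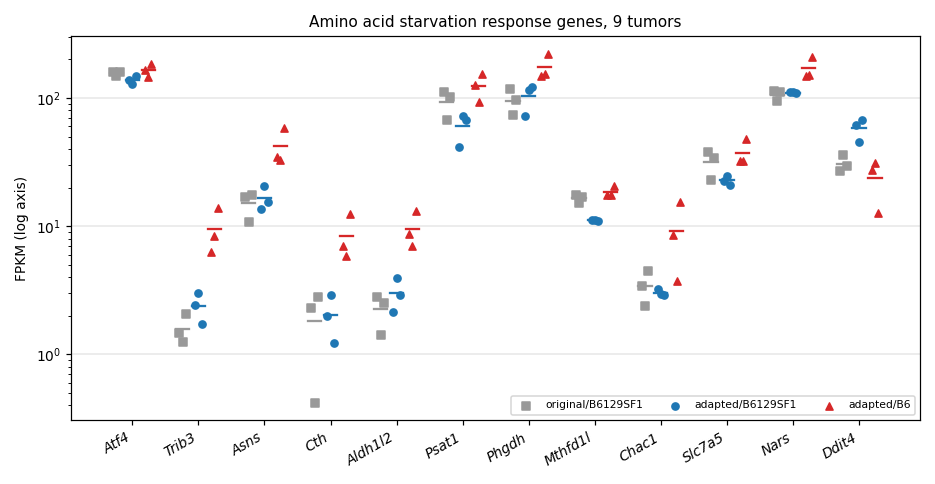
FPKM on a log axis of genes of the amino acid starvation response in 9 tumors, with 1 point per tumor and a bar at each group mean. Adapted/B6 tumors lie above adapted/B6129SF1 tumors for all genes shown except Atf4, where the groups overlap, and Ddit4, where they lie below.

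Immediate early genes, which cells transcribe within minutes of growth factor or stress signals and during handling of tissue, differed in direction. Egr1 measured 81.3, 42.8 and 45.7 FPKM in adapted/B6129SF1, 20.4, 10.7 and 11.3 FPKM in adapted/B6 and 40.4, 26.7 and 92.6 FPKM in original/B6129SF1. All tumors of B6129SF1 hosts were above all of C57BL/6 hosts, and the mean was 4-fold lower in adapted/B6 with a limma adjusted p of 0.551. Fosb averaged 8.25 ± 1.35 and 2.87 ± 1.13 FPKM and Fos 53 ± 23.4 and 19.5 ± 6.16 FPKM (SD, n = 3). Over 22 tested genes of a list also written after the differences were seen, 5 were lower and 1 (Nr4a2) higher without overlap and the median was -0.29, or -0.06 without adapted/B6129SF1 replicate 3. Among outputs of the ERK pathway, which carries the mutant Braf signal, Etv4 and cyclin D1 (Ccnd1) were higher without overlap and Egr1 and the feedback inhibitor Spry4 lower, with a median of 0.10 over 19 genes, or -0.17 without adapted/B6129SF1 replicate 3. Ccnd1 measured 208, 212 and 196 FPKM in adapted/B6129SF1 and 258, 256 and 308 FPKM in adapted/B6. Of 18 tested p53 targets, Sesn1 and Trp53inp1 were lower without overlap and none was higher. Their median was -0.10, or 0.011 without adapted/B6129SF1 replicate 3. The source mice of the line lacked Trp53 in the thyroid, and which cells made these transcripts was not tested. For each list in this paragraph, the shares without overlap over all genes tested were 5.43% lower and 6.36% higher.

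The direction of proliferation genes rested on adapted/B6129SF1 replicate 1. The marker Mki67 measured 29.6, 74.5 and 57.1 FPKM in adapted/B6129SF1 and 63.2, 51.1 and 51.4 FPKM in adapted/B6. Of 36 tested genes, 34 had a log2 fold change above 0, and the replication genes Mcm3 and Mcm7 and their regulator E2f1 were the 3 that were higher without overlap, beside 6.36% of all genes tested. The median log2 fold change was 0.23 with all 6 tumors and -0.15 without adapted/B6129SF1 replicate 1.

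**Figure D5:**
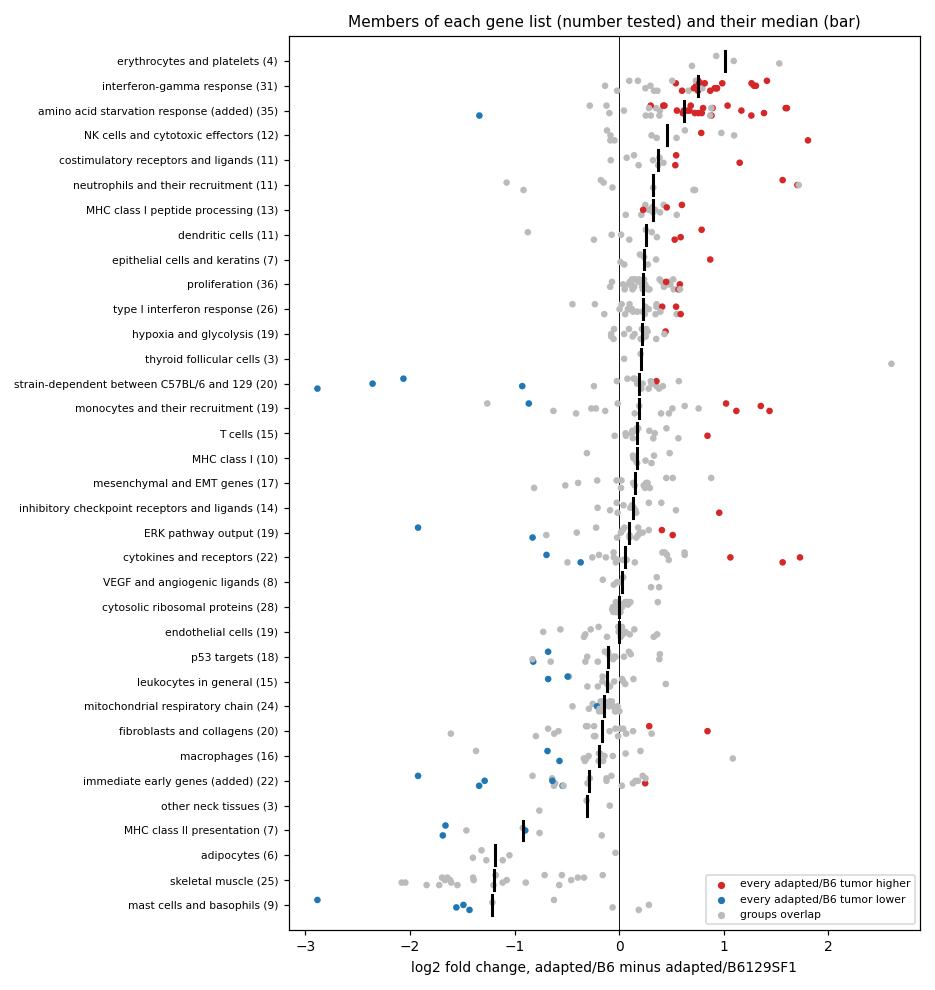
Log2 fold changes of adapted/B6 over adapted/B6129SF1 for the tested members of each gene list, with 1 point per gene and a black bar at the list median. Red points are genes with every adapted/B6 tumor higher, blue points every adapted/B6 tumor lower, grey points overlap, and the 2 lists called added were written after the largest differences had been seen.

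The plot of list members shows the interferon-gamma and amino acid starvation lists as the longest runs of genes without overlap. The MHC class II, mast cell, muscle and adipocyte lists have the medians farthest below 0, and the muscle and adipocyte genes all overlap. Adipocyte genes summed to 363 FPKM in replicate 3 of adapted/B6129SF1 and to 128 FPKM in replicate 1 of adapted/B6, and to between 18.8 and 93.4 FPKM in the other 4 tumors. Muscle RNA was addressed only by leaving out those tumors, by scaling without muscle genes and by a muscle covariate. Over all alternative runs the list medians ranged from -1.42 to -0.29 for mast cell and from -0.43 to -0.053 for immediate early genes. The part of muscle and fat RNA in these differences was not tested further. Endothelial cell and cytosolic ribosomal protein genes had medians of -0.0044 and 0.0012 and no gene without overlap.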

How the data were processed

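RNA of 9 orthotopic tumors was measured, 3 per group, and groups were taken from the sample labels. The authors deposited FPKM per gene, made with Cuffnorm after HISAT2 alignment to mm10 and FastQC. Cuffdiff is also named in the submitters' notes. The mm10 assembly is of C57BL/6 origin, and whether reads from the other parental strain of B6129SF1 aligned as completely was not tested. The table had 0 columns of other samples, and no pair of tumors shared more than 0.0494% of values.

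Genes that reached 1 FPKM in 3 or more of the 6 adapted tumors were tested with limma 3.58.1 (R 4.3.3, eBayes with trend, two-sided) on log2(FPKM + 1) with Benjamini-Hochberg adjustment over all of them. The script was tested on simulated data. Only the 6 adapted tumors entered the main fit, and a model of 9 tumors was an alternative. Genes named were the 12 largest differences in each direction among genes without overlap and with at least 5 FPKM in the higher group, those called in either fit, members of the described lists without overlap or that define a cell type, and genes the study names. Others named in the closing section were chosen from genes without overlap after their values were seen. Members and 35 lists were chosen with earlier results of these data known, and 2 lists were added later. Tumors are separate biological samples. Pseudocount, filter, scaling, muscle covariate, replicate block and left-out tumors were varied. Gene symbols are those of the table.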

Additional observations from a re-analysis of the deposited data

How the results depend on the processing

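With limma the count of DEGs was 0 under each alternative run except the model of all 9 tumors, which gave 3, and 0 genes passed the adjusted p without the fold limit too. Unadjusted counts ranged from 260 without adapted/B6 replicate 3 to 860 without adapted/B6129SF1 replicate 1. With a replicate block the lowest adjusted p was 0.154, 523 genes passed unadjusted, and no call changed. Deviations of same-numbered tumors correlated at -0.38, 0.61 and -0.25, so that the tumors shared only a number. The 30 higher and 30 lower genes without overlap past the fold limit became 11 and 12 with a pseudocount of 5, and the 19 and 9 that followed the host strain became 6 and 4. With at least 1 FPKM in all tumors 19 were lower and 3 of them followed the host strain. Without a fold limit, chosen after seeing the data, 644 were higher and 550 lower. When 1 tumor, or both tumors with muscle RNA, were left out, 23 to 54 were higher, 29 to 94 lower, and 14 to 38 and 4 to 29 followed the host strain. Groups with fewer tumors separate more easily by construction. The extremes came without adapted/B6 replicates 1, 2 or 3, the muscle tumors and adapted/B6129SF1 replicate 1.

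List medians over the same left-out tumors ranged from 0.10 to 0.48 for costimulatory, 0.041 to 0.67 for NK and cytotoxic, 0.089 to 0.53 for monocyte, -0.025 to 0.51 for neutrophil, 0.10 to 0.34 for dendritic cell, -1.38 to -0.45 for mast cell, -0.20 to 0.28 for ERK output and -0.43 to -0.053 for immediate early genes. A pseudocount of 0.1 gave 0.80 for neutrophil and 0.48 for dendritic cell genes, and a pseudocount of 5 gave 0.20 for costimulatory and 0.093 for dendritic cell genes. With no filter dendritic cell and mast cell medians were 0.0054 and -0.29, and with 1 FPKM in all tumors the dendritic cell median was 0.10. Some log2 fold changes changed sign. Over left-out tumors they ranged from -0.32 to 0.18 for Ido1, -0.23 to 0.40 for Ccl5, -0.039 to 0.42 for H2-K1, -0.011 to 0.94 for Cd8a, -0.018 to 0.80 for Cd3g, -0.24 to 1.23 for Ccl8 and -0.24 to 0.41 for Mki67, and Ccl5 was 0.048 with a muscle covariate. Other scaling moved the median of all genes from 0.0071 to 0.0014 and unadjusted calls from 323 higher and 286 lower to 313 and 301, or to 294 and 231 without muscle genes. The cause of these changes was not tested. Planned counts of promoter motifs were not run. Depth is unknown from FPKM, and low genes such as Ifng are the least certain.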

Other observations

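Several other genes among the larger differences downward, named after their values were seen, had adjusted p-values of at least 0.538 by limma with 6 tumors. The acute-phase apolipoprotein Saa3 measured 130, 19.1 and 190 FPKM in adapted/B6129SF1 and 9.75, 3.90 and 7.20 FPKM in adapted/B6, a 16.3-fold difference of means with a limma adjusted p of 0.70. The original/B6129SF1 tumors, at 2.86, 42.2 and 28.1 FPKM, overlapped both groups. Apoc1, an apolipoprotein of macrophages and liver, averaged 6.26 ± 2.50 FPKM in adapted/B6129SF1 and 1.04 ± 0.594 FPKM in adapted/B6 (SD, n = 3). The sulfotransferase Sult1a1 averaged 18.2 ± 6.97 and 4.67 ± 3.64 FPKM, and the ketone body enzyme Bdh1 1.79 ± 0.106 and 0.379 ± 0.279 FPKM. Glutamine synthetase (Glul) averaged 192 ± 83.7 and 89.0 ± 30.1 FPKM. None of these followed the host strain. Lyz1, a lysozyme whose reads may be shared with its paralog Lyz2, averaged 4.25 ± 1.52 FPKM in adapted/B6129SF1 and 0.642 ± 0.174 FPKM in adapted/B6. Bdh1 and Lyz1 were under 1 FPKM in every adapted/B6 tumor and passed the filter through the adapted/B6129SF1 tumors. The proteoglycan Spock2 measured 10.5, 3.92 and 6.36 FPKM in adapted/B6129SF1 and 1.82, 1.84 and 1.01 FPKM in adapted/B6, and 2 original/B6129SF1 tumors were lower than all of these.

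In the other direction, collagenase 3 (Mmp13) averaged 0.897 ± 0.400 FPKM in adapted/B6129SF1 and 3.90 ± 1.37 FPKM in adapted/B6 (SD, n = 3), with original/B6129SF1 tumors at 2.15 to 6.58 FPKM. The activin-binding protein follistatin (Fst) averaged 14.8 ± 3.81 and 33.5 ± 10.8 FPKM. Cholesterol 25-hydroxylase (Ch25h), an interferon-induced antiviral enzyme, averaged 7.22 ± 0.698 and 18.4 ± 7.36 FPKM. The peptide hormone Adm2, at 1.29 ± 0.467 and 4.64 ± 1.83 FPKM, and the neuronal tubulin Tubb3, at 8.48 ± 3.86 and 18.3 ± 4.81 FPKM, followed the host strain. The adhesion molecule Cdh1 measured 1.47, 2.11 and 1.03 FPKM in adapted/B6129SF1 and 4.48, 2.80 and 3.58 FPKM in adapted/B6, while Krt8, at 153 to 283 and 221 to 241 FPKM, overlapped.

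Of 20 tested genes known to differ between the parental strains of B6129SF1, 4 were lower without overlap (Tpsab1, Gdpd3, Lilra6 and Pira2), and 1 was higher, the NKG2D ligand Raet1e at 6.45 ± 0.0382 against 4.85 ± 0.718 FPKM. The other 15 overlapped, and over all genes tested 5.43% were lower and 6.36% higher without overlap. This list was written with the earlier results of these data known, so its counts are no independent evidence. Its median was 0.19. Tpsab1, Lilra6 and Pira2 were under 1 FPKM in every adapted/B6 tumor and passed the filter through the adapted/B6129SF1 tumors. Of 24 tested genes of the mitochondrial respiratory chain, 23 had a log2 fold change below 0 with a median of -0.15, and 1 was lower without overlap (5.43% of all genes tested were). The median was 0.026 without adapted/B6129SF1 replicate 3, the tumor with the most muscle RNA. Platelet factor 4 (Pf4) measured 276, 69.5 and 159 FPKM in adapted/B6129SF1 and 229, 291 and 320 FPKM in adapted/B6.

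Dendritic cell genes had a median log2 fold change of 0.25 over 11 tested, with 8 above 0 and 3 below. The chemokine Ccl22 (3.03 ± 0.313 against 1.35 ± 0.339 FPKM, SD, n = 3), the lectin Mgl2 (4.27 ± 0.526 against 2.64 ± 0.153 FPKM) and Bst2 were higher in adapted/B6 without overlap. Bst2 is also on the type I interferon list. Those below 0 were Clec10a (-0.87), Zbtb46 (-0.24) and Clec9a (-0.072), all with overlap. Here and for the lists below, 6.36% of all genes tested were higher and 5.43% lower without overlap. General leukocyte genes had a median of -0.11 over 15, or 0.19 without adapted/B6 replicate 2, and the adaptor Tyrobp (288 ± 89.2 against 391 ± 28.6 FPKM) and the GTPase Rac2 (18.4 ± 6.57 against 29.1 ± 6.01 FPKM) were lower without overlap. Fibroblast and collagen genes had a median of -0.16 over 20, or 0.18 without adapted/B6129SF1 replicate 3, with Col6a3 and Thy1 higher without overlap. Hypoxia and glycolysis genes had a median of 0.22 over 19, with the glycolytic enzyme Eno1 higher at 619 ± 71.8 against 454 ± 39.9 FPKM. Mesenchymal genes (0.15 over 17) and angiogenic ligands (0.023 over 8, or -0.022 without adapted/B6129SF1 replicate 3) had no gene without overlap. The medians were 0.24 over 7 epithelial genes, 0.33 over 11 neutrophil genes, 0.05 over 22 cytokine and receptor genes, 0.37 over 11 costimulatory genes and 0.19 over 19 monocyte genes. Thyroid follicular genes (0.21 over 3), genes of other neck tissues (-0.31 over 3) and erythrocyte and platelet genes (1.01 over 4) had few tested members, and 1 eosinophil gene of 9 in the table was tested. The 3 thyroid genes had log2 fold changes from 0.047 to 2.60, all with overlap and limma adjusted p-values of at least 0.826 with 6 tumors. Their mean log2(FPKM + 1) was 3.38, 3.26 and 3.24 in adapted/B6129SF1 and 4.78, 4.58 and 3.38 in adapted/B6. In original/B6129SF1 it was 3.29, 5.18 and 4.49.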
